A study of Mus musculus with 6 samples.

Results

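The genes described here encode the centromere, the kinetochore and the spindle checkpoint. They were taken from a list of 43 symbols, which stand for 42 genes because Casc5 and Knl1 are names of the same gene, and 41 of them were measured among 19938 genes tested. The gene of the list that is not reported, Hjurp, has a probe set annotated to several genes. Sgo1 and Sgo2a are listed under their older symbols Sgol1 and Sgol2a. Each of the 41 genes had 1 probe set annotated to it alone. RAW264.7, an established mouse macrophage-like cell line, was transfected either with a mimic of miR-342-3p (a synthetic version of the mature microRNA) or with a negative control mimic. Cells were plated at 500000 per well, and total RNA was isolated 18 h after transfection. From each group 3 samples were hybridized to Affymetrix mouse gene arrays with 150 ng of RNA per sample, so the comparison rests on 3 control and 3 miR-342-3p arrays of 1 cell line and 1 time point. These samples came from independent experiments, as the study describes them.

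The kinetochore is the protein assembly that joins a chromosome to the microtubules of the mitotic spindle. Its inner layer sits on chromatin that carries the histone variant CENP-A and consists of the constitutive centromere-associated network (CCAN). Its outer layer consists of the KMN network (the KNL1, MIS12 and NDC80 complexes), which holds the microtubule ends, with the SKA complex and the fibrous corona, and the spindle checkpoint acts from there to delay anaphase until every chromosome is attached. Many of these genes are transcribed mainly late in the cell cycle, so that their messages are most abundant in G2 and mitosis. In RNA from whole cultures, a smaller number of cells in these phases and less RNA per cell cannot be told apart.

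The mature miR-342-3p (RefSeq, GRCm38.p6, chr12:108658680-108658702, plus strand) is 23 bases long. It is shown because it is the RNA that the mimic supplies, and capitals mark its seed, bases 2 to 8.
mmu-miR-342-3p: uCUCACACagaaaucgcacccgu

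The promoters of 4 genes are shown, each 300 bases long (250 before and 50 after the start site, RefSeq, GRCm38.p6). Cenpa had the lowest FDR of the genes, Cenpe the lowest fold change, Ttk encodes a checkpoint kinase, and Zwint was the gene that was higher. Capitals mark CCAAT or TTTGAA, read on either strand (ATTGG and TTCAAA are the same letters on the other strand). TTTGAA is the core of the cell cycle genes homology region (CHR), an element known from promoters of late cell cycle genes, and CCAAT is the box bound by NF-Y.
Cenpa, chr5:30666636-30666935 (plus strand): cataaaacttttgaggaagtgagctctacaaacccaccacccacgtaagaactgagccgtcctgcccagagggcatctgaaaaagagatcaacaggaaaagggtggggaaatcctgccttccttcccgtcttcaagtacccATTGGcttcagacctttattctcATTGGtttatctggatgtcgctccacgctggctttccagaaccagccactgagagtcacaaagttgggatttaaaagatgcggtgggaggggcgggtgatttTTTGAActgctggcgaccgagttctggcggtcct
Cenpe, chr3:135212313-135212612 (plus strand): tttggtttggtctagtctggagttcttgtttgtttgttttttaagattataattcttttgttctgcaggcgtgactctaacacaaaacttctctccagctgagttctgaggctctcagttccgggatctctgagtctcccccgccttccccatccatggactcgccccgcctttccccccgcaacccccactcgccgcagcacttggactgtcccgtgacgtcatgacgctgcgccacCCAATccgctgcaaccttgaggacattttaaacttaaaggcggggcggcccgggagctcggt
Ttk, chr9:83834439-83834738 (plus strand): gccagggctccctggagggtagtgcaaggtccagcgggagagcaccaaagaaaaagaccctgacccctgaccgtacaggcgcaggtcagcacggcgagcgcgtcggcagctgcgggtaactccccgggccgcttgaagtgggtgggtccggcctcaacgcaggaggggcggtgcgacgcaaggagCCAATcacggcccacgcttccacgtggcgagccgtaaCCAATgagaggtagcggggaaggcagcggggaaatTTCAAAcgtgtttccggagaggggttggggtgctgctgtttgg
Zwint, chr10:72654596-72654895 (plus strand): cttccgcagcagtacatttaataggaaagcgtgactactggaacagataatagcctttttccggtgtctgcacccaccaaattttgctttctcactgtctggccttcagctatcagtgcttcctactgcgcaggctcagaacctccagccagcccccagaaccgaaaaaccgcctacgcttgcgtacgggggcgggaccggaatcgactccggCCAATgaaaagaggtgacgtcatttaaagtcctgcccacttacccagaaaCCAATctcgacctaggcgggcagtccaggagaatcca

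All values are the log2 signals that the authors deposited, and all differences are miR-342-3p minus control, with a standard error (SE) or a 95% confidence interval from limma. A gene was called at a false discovery rate (FDR) under 0.1 over all genes. Over all genes tested, control arrays correlated with each other at 0.9982 to 0.9986 and miR-342-3p arrays at 0.9909 to 0.9926, and miR-342-3p replicate 3 lay nearer to the controls, with correlations of 0.9958 to 0.9961 to them. The median difference of all genes was 0.07. The 10 macrophage markers had mean control signals of 7.49 to 12.80, whereas those of the 6 fibroblast markers were 4.72 to 7.93, those of the 6 lymphocyte markers 4.41 to 6.64 and those of the 4 epithelial markers 5.73 to 7.48. Of these markers, Itgam (-0.35, FDR = 0.0643) and Fcgr1 (-0.35, FDR = 0.0355) fell, Spi1 (0.35, FDR = 0.044) and Pdgfra (0.49, FDR = 0.0314) rose and no lymphocyte or epithelial marker was called. The part of these markers in the results below was not tested.

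Of the 41 genes, 30 fell in miR-342-3p-transfected cells, 1 rose (Zwint) and 10 were not called. Among all genes 7.42% were called lower and 4.14% higher. The median log2 fold change of the 41 genes was -0.63, and they ranged from -1.32 (Cenpe) to 0.57 (Zwint). In 36 genes every miR-342-3p array was below every control array, in Zwint every one was above, and in Cenpb, Cenpt, Spdl1 and Bub3 the groups overlapped. Such separation was found in 15.5% of all genes downwards and in 21.4% upwards. Their control signals were high for these arrays, 40 of the 41 genes being in the upper part of the genes divided at the median, where 14.0% of genes were called lower. The count of genes that fell changed with the arrays in the fit, as it did over all genes. It was 5 without control replicate 1, 6 without control replicate 2 and 5 without control replicate 3, against 20, 30 and 35 without miR-342-3p replicates 1, 2 and 3. Of all genes 102, 115 and 140 were called lower without these control arrays and 986, 1830 and 2422 without these miR-342-3p arrays, instead of 1479. The 6 genes called whichever array was left out were Cenpa, Cenph, Cenpq, Nuf2 and Zwilch, all lower, and Zwint.

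**Figure D1:**
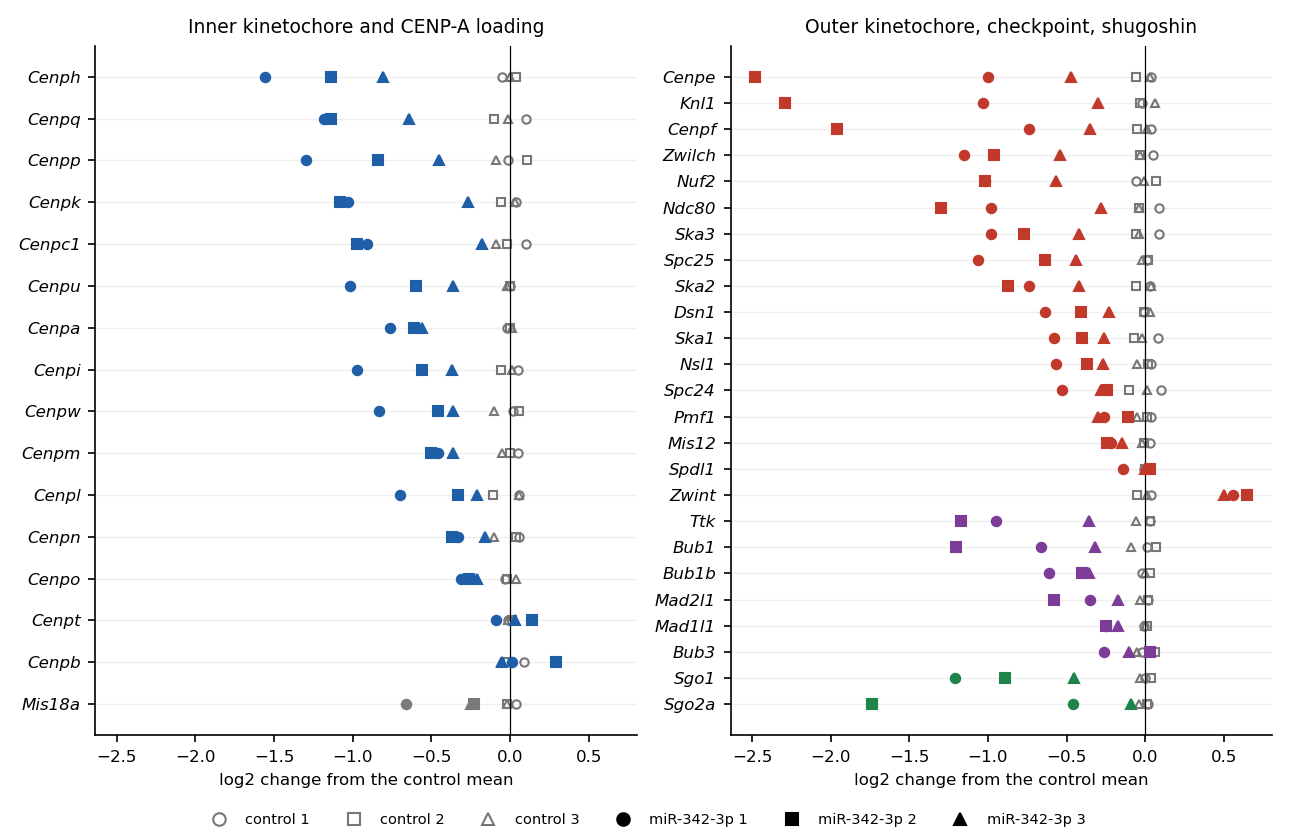
Log2 change from the control mean (horizontal axis) of each of the 41 genes (rows) in each of the 6 arrays. Open grey symbols are control and filled symbols miR-342-3p arrays (blue, inner kinetochore; grey, CENP-A loading; red, outer kinetochore; purple, checkpoint; green, shugoshins), and the shape gives the replicate; the filled symbols lie left of the open ones in 36 genes and right of them in Zwint.

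A stricter threshold left fewer genes. At an FDR under 0.05, 18 of the 41 genes fell (3.32% of all genes) and Zwint rose (1.56% of all genes), and at an FDR under 0.01 only Cenpa fell (0.0953% of all genes) and none rose, while at an unadjusted p under 0.05 in limma 35 were lower and 1 was higher. At that unadjusted p 13.0% of all genes were lower and 12.5% higher. Scaling moved the split of all genes, with 1479 lower and 825 higher in the deposited values, 1379 and 408 with each array centered on its median and 1424 and 1817 after repeated quantile normalization. Of the 41 genes 29 and 25 fell under these alternatives, and Zwint rose in both. The fall was unequal among the miR-342-3p arrays. The median change of the 41 genes was -0.70 in replicate 1, -0.58 in replicate 2 and -0.30 in replicate 3, and replicate 3 had the highest signal of the miR-342-3p arrays in 33 of the 41 genes. The SD was larger in the miR-342-3p arrays than in the controls in 41 of 41 genes and in 84.9% of all genes.

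Cenpa encodes CENP-A, the histone H3 variant that marks the centromere. Its signal was 10.07, 10.09 and 10.10 in the control arrays and 9.33, 9.48 and 9.53 in miR-342-3p replicates 1, 2 and 3. It fell by 0.64 on the log2 scale (SE 0.080, FDR = 0.00933), which is 0.640 times the control signal, and the miR-342-3p arrays differed from each other by far less than they did from the controls. Mis18a, a subunit of the complex that licenses CENP-A deposition, had 8.36, 8.30 and 8.30 in the controls and 7.66, 8.09 and 8.06 in the miR-342-3p arrays. Mis18a fell by 0.38 (SE 0.118, FDR = 0.0942), close to the threshold, and replicate 1 was the low array. Cenpb, which binds the CENP-B box of satellite DNA, had 8.65, 8.55 and 8.50 in the controls and 8.58, 8.85 and 8.51 in the miR-342-3p arrays. The groups overlapped, and the difference was 0.08 with an interval of -0.15 to 0.32 (FDR = 0.599).

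The CCAN links CENP-A chromatin to the outer kinetochore, and 12 of its 13 measured genes fell, with a median of -0.63. Cenph, a subunit of its CENP-H/I/K/M group, had 8.43, 8.52 and 8.48 in the controls and 6.92, 7.34 and 7.67 in the miR-342-3p arrays, which is well below the controls in each. The fall of Cenph, -1.17 (SE 0.162, FDR = 0.0122), was the largest of the CCAN. Its partners Cenpk (-0.79, FDR = 0.0504), Cenpi (-0.63, FDR = 0.0406) and Cenpm (-0.44, FDR = 0.0207) fell as well, so 4 of 4 genes of that group were called, with a median of -0.71.

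The CENP-O/P/Q/U group fell with 4 of 4 genes called and a median of -0.76. Cenpq had 9.53, 9.33 and 9.42 in the controls and 8.25, 8.29 and 8.78 in the miR-342-3p arrays (-0.99, SE 0.140, FDR = 0.0132). Cenpp had 7.20, 7.32 and 7.12 in the controls and 5.91, 6.37 and 6.76 in the miR-342-3p arrays (-0.87, SE 0.184, FDR = 0.0361). Replicate 3 was the nearest to the controls in both genes, and no array of either overlapped them. Cenpu fell by 0.66 (FDR = 0.0413), whereas Cenpo, in the same group, fell by 0.26 (FDR = 0.0736).

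Cenpc1 encodes CENP-C, the scaffold that binds CENP-A nucleosomes and the MIS12 complex, and it fell by 0.69 (SE 0.187, FDR = 0.0694). The CENP-A nucleosome reader Cenpn (-0.28, FDR = 0.0949) and its partner Cenpl (-0.41, FDR = 0.0936) were called close to the threshold. CENP-T and CENP-W form a histone-fold pair that recruits the NDC80 complex, and they differed in call. Cenpw fell by 0.55 (SE 0.123, FDR = 0.0410). Cenpt had 8.77, 8.79 and 8.77 in the controls and 8.69, 8.92 and 8.81 in the miR-342-3p arrays, on both sides of the controls, with a difference of 0.03 and an interval of -0.16 to 0.21 (FDR = 0.834).

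**Figure D2:**
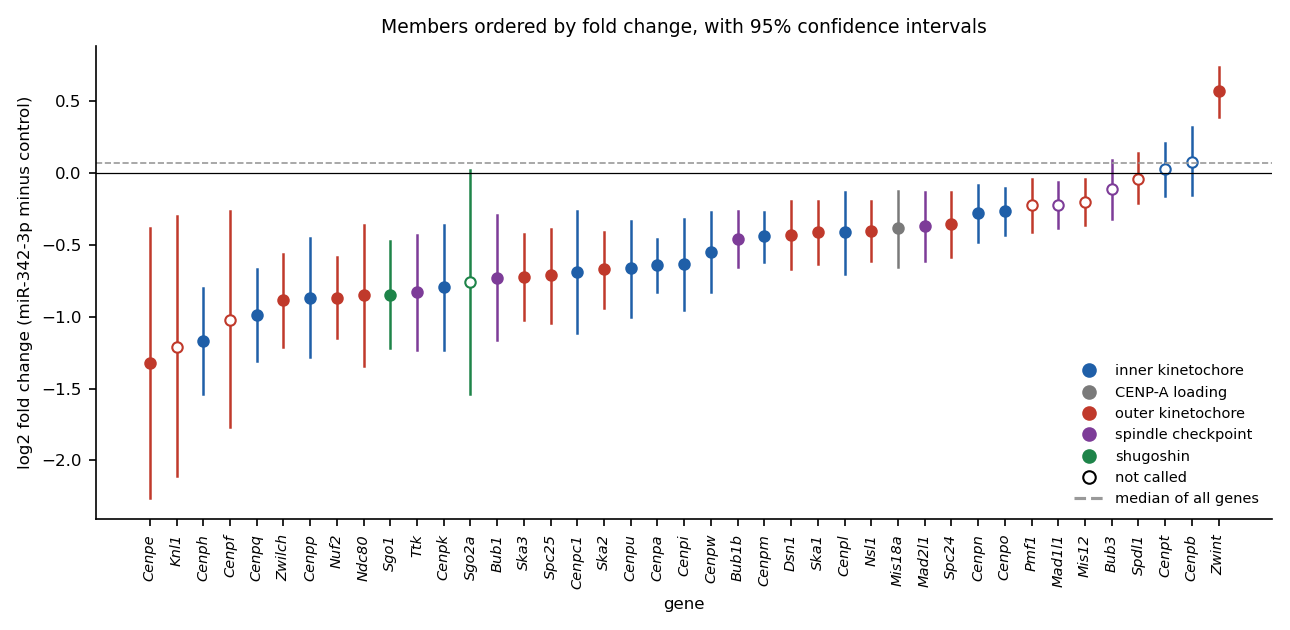
Log2 fold change (miR-342-3p minus control) of the 41 genes in ascending order with 95% confidence intervals from limma, coloured by position in the kinetochore; open symbols were not called, and the dashed line is the median of all genes (0.07). The intervals of Cenpe, Knl1, Cenpf and Sgo2a are the widest, and Zwint (0.57) is the only called gene above 0.

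In the KMN network 6 of 10 genes fell, 1 rose and 3 were not called, with a median of -0.41. The NDC80 complex, a rod whose Ndc80 and Nuf2 ends bind microtubules, fell with 4 of 4 genes called and a median of -0.78. Nuf2 had 9.50, 9.63 and 9.55 in the controls and 8.54, 8.54 and 8.99 in the miR-342-3p arrays (-0.87, SE 0.125, FDR = 0.0141). Ndc80 had 8.75, 8.62 and 8.62 in the controls and 7.68, 7.37 and 8.39 in the miR-342-3p arrays (-0.85, SE 0.217, FDR = 0.0596). Both were lowest in replicates 1 and 2, and in Ndc80 replicate 3 lay at -0.28 from the control mean. Spc25 (-0.71, FDR = 0.0304) and Spc24 (-0.35, FDR = 0.0747), at the other end of the rod, also fell.

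In the MIS12 complex, which joins the inner kinetochore to NDC80 and KNL1, 2 of 4 genes fell, Dsn1 (-0.43, FDR = 0.0555) and Nsl1 (-0.40, FDR = 0.0463). Mis12 (-0.20, interval -0.36 to -0.04, FDR = 0.131) and Pmf1 (-0.22, interval -0.41 to -0.04, FDR = 0.136) were below the controls in every miR-342-3p array but were not called. The median of the complex was -0.31.

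Knl1 and Zwint encode the partners of the KNL1 complex, and their values moved apart. Knl1, the scaffold that recruits BUB1 and BUB3, had 9.46, 9.45 and 9.54 in the controls and 8.46, 7.19 and 9.19 in the miR-342-3p arrays. Its difference of -1.21 had an interval of -2.11 to -0.30 and was not called (FDR = 0.114), replicate 2 being far lower than the other arrays. Zwint, which binds KNL1 and takes part in bringing the RZZ complex to kinetochores, had 10.83, 10.74 and 10.80 in the controls and 11.35, 11.44 and 11.28 in the miR-342-3p arrays. It rose by 0.57 (SE 0.077, interval 0.39 to 0.74, FDR = 0.0119), 1.483 times the control signal, and its miR-342-3p arrays lay within a narrow range above all controls.

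The corona is the outermost layer and captures the sides of microtubules, and 2 of its 4 genes fell. Cenpe, the kinetochore motor that carries chromosomes to the spindle equator, had 9.41, 9.31 and 9.40 in the controls and 8.37, 6.89 and 8.90 in the miR-342-3p arrays. Its difference of -1.32 (SE 0.412, FDR = 0.098) was the lowest of the 41 genes and just passed the threshold. Cenpf, a microtubule-binding protein that accumulates in G2, had 8.64, 8.55 and 8.61 in the controls and 7.86, 6.64 and 8.25 in the miR-342-3p arrays, and its difference of -1.02 (interval -1.77 to -0.26) was not called (FDR = 0.110). In both genes all miR-342-3p arrays were below the controls and replicate 2 was the lowest. Zwilch, a subunit of the RZZ complex that brings dynein to kinetochores, had 9.53, 9.45 and 9.45 in the controls and 8.32, 8.52 and 8.94 in the miR-342-3p arrays (-0.88, SE 0.141, FDR = 0.0183). Spdl1, the dynein adaptor Spindly, had 6.36, 6.37 and 6.38 in the controls and 6.23, 6.40 and 6.37 in the miR-342-3p arrays. Its groups overlapped, with a difference of -0.04 and an interval of -0.21 to 0.14 (FDR = 0.756).

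The SKA complex helps the kinetochore to stay on shrinking microtubules, and 3 of its 3 genes fell, with a median of -0.67. Ska1 had 7.96, 7.81 and 7.86 in the controls and 7.30, 7.48 and 7.61 in the miR-342-3p arrays (-0.41, SE 0.096, FDR = 0.0473). Ska2 had 9.99, 9.90 and 10.00 in the controls and 9.22, 9.10 and 9.55 in the miR-342-3p arrays (-0.67, SE 0.116, FDR = 0.0207). Ska3 had 9.45, 9.30 and 9.32 in the controls and 8.38, 8.58 and 8.94 in the miR-342-3p arrays (-0.72, SE 0.133, FDR = 0.0254). Every miR-342-3p array of the complex was below every control, and replicate 3 was the nearest to the controls in each gene.

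Of the 6 spindle checkpoint genes 4 fell, with a median of -0.41. Ttk encodes MPS1, the kinase that starts checkpoint signaling at KNL1. It had 8.91, 8.91 and 8.82 in the controls and 7.93, 7.71 and 8.52 in the miR-342-3p arrays (-0.83, SE 0.177, FDR = 0.0366). Bub1, a kinase that is recruited by KNL1, had 10.36, 10.42 and 10.26 in the controls and 9.69, 9.14 and 10.03 in the miR-342-3p arrays (-0.73, SE 0.190, FDR = 0.0631). These kinase genes were lowest in replicate 2. Bub1b, which encodes BUBR1 of the mitotic checkpoint complex, had 9.73, 9.78 and 9.75 in the controls and 9.14, 9.36 and 9.39 in the miR-342-3p arrays (-0.46, SE 0.087, FDR = 0.0267). Mad2l1, which encodes the CDC20 inhibitor MAD2, fell by 0.37 (FDR = 0.0782). Its kinetochore receptor gene Mad1l1 was not called, with a difference of -0.22, an interval of -0.38 to -0.06 and an FDR of 0.105. Bub3, the partner of BUB1 and BUBR1, had 11.20, 11.28 and 11.17 in the controls and 10.95, 11.24 and 11.11 in the miR-342-3p arrays, with overlapping groups and a difference of -0.11 (interval -0.32 to 0.09, FDR = 0.429).

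Shugoshins protect the cohesin that holds sister centromeres together. Sgo1, which acts in mitosis, had 9.74, 9.78 and 9.71 in the controls and 8.54, 8.85 and 9.30 in the miR-342-3p arrays (-0.85, SE 0.164, FDR = 0.0278). Sgo2a had 9.95, 9.94 and 9.89 in the controls and 9.46, 8.19 and 9.84 in the miR-342-3p arrays. Replicate 2 of Sgo2a was far lower than the others, replicate 3 was just under the controls, and the difference of -0.76 was not called (interval -1.54 to 0.02, FDR = 0.202).

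Inner and outer kinetochore were compared by counts and medians. Of the 15 inner genes (Cenpa, Cenpb and the CCAN) 13 fell and none rose, with a median of -0.63 and quartiles of -0.74 and -0.35. Of the 17 outer genes (KMN network, corona and SKA complex) 11 fell and 1 rose, with a median of -0.67 and quartiles of -0.87 and -0.35. A fold change below -0.5 was found in 9 of 15 inner and 9 of 17 outer genes. Which layer had the lower median depended on the array, with inner and outer medians of -0.83 and -0.74 in miR-342-3p replicate 1, -0.56 and -0.64 in replicate 2 and -0.36 and -0.30 in replicate 3. With the KMN network alone as the outer layer its median was -0.41, against -0.63 for the CCAN. No test of the difference was made, since genes are not replicates. The spread within a layer was wider than the difference between the layers, as complexes of the outer layer ran from the MIS12 complex (-0.31) to the corona (-0.95). The corona median of 4 genes was -0.87, -1.46 and -0.41 in miR-342-3p replicates 1, 2 and 3, so its size varied with the array. That of the MIS12 complex was -0.41, -0.30 and -0.25. Without a control array 3 inner genes fell whichever was left out. Of the outer genes 2, 3 and 2 fell without control replicates 1, 2 and 3. Without miR-342-3p replicates 1, 2 and 3, respectively, 9, 10 and 13 of the 15 inner genes fell. Of the 17 outer genes 8, 14 and 14 fell in these fits. At an unadjusted p under 0.05 in limma 13 inner and 15 outer genes were lower, beside 13.0% of all genes. Which layer had the larger share of called genes thus depended on the arrays in the fit.

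**Figure D3:**
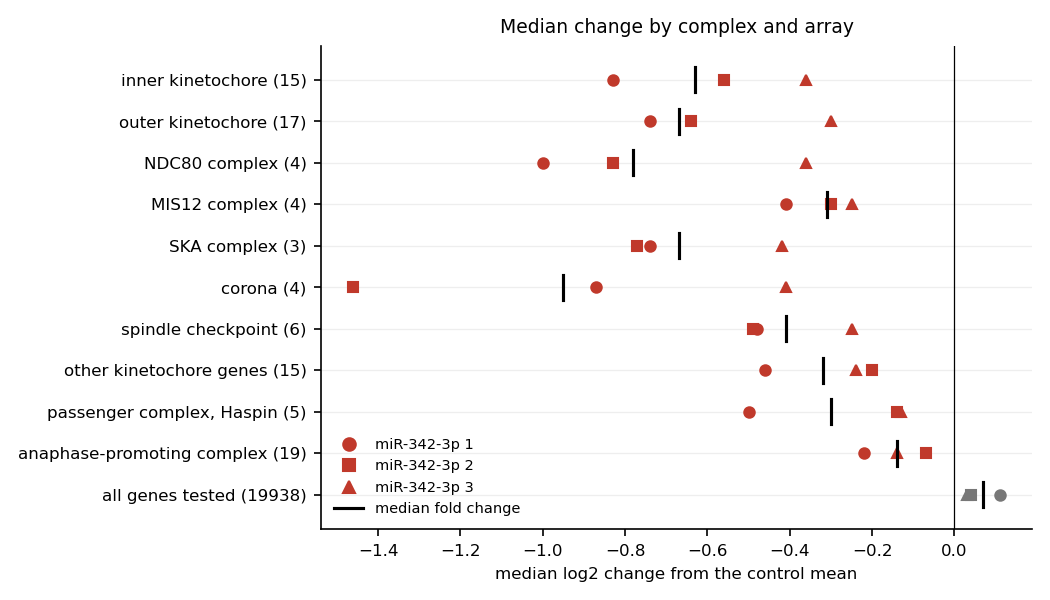
Median log2 change from the control mean (horizontal axis) of the inner and outer kinetochore, 5 gene groups, 3 lists of related genes and all genes (number of genes in parentheses) in miR-342-3p replicates 1, 2 and 3 (circles, squares and triangles), with bars at the median fold change. Replicate 3 lies nearest to 0 in the first 7 rows, and the corona reaches -1.46 in replicate 2.

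Replicate 2 set a few genes apart. Cenpe, Knl1, Sgo2a and Cenpf were lower in replicate 2 than in replicate 1 by more than 1 on the log2 scale, with differences (replicate 2 minus replicate 1) of -1.48, -1.27, -1.27 and -1.22. That is 4 of 41 genes (9.76%), against 45 of all genes (0.226%). Bub1 (-0.55) and Ndc80 (-0.31) went the same way by less, while 9 genes were higher in replicate 2 than in replicate 1 by more than 0.3, namely Mis18a, Cenph, Cenpi, Cenpl, Cenpp, Cenpu, Cenpw, Spc25 and Sgo1. At this bound of 0.3 the shares were 14.6% of the 41 genes below replicate 1 and 22.0% above it, against 18.0% and 11.8% of all genes, so downwards only the bound of 1 held more of them than of all genes. Without miR-342-3p replicate 2 the differences were -0.74 for Cenpe (FDR = 0.0489), -0.66 for Knl1 (FDR = 0.0883), -0.55 for Cenpf (FDR = 0.0520) and -0.28 for Sgo2a (FDR = 0.149). Cenpe, Knl1 and Cenpf thus had smaller differences and were called without that array. The genomic spans of Cenpe, Knl1, Cenpf and Sgo2a were 60978, 63379, 47502 and 40938 bases. The longest spans of the 41 genes were those of Mad1l1 (312920 bases) and Cenpp (188926 bases). Mad1l1 changed by -0.25 in both replicates, and Cenpp was higher in replicate 2 than in replicate 1 by 0.46. Across the 41 genes the difference between replicates 2 and 1 had a Pearson correlation of -0.35 and a Spearman correlation of -0.34 with the genomic span of the gene (on a log10 scale), and across 19916 genes of 0.03 and 0.04. The fold change itself had correlations of -0.36 and -0.47 with the span in the 41 genes and of -0.16 and -0.15 in all genes. In the 41 genes the changes in replicates 1, 2 and 3 had Pearson correlations of -0.27, -0.43 and -0.10 and Spearman correlations of -0.31, -0.48 and -0.17. Over all genes these were -0.16, -0.15 and -0.09, and -0.16, -0.12 and -0.08. The relation to span in the 41 genes was thus strongest in replicate 2, present in replicate 1 and weakest in replicate 3. Genes share the arrays, so these values are a description.

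**Figure D4:**
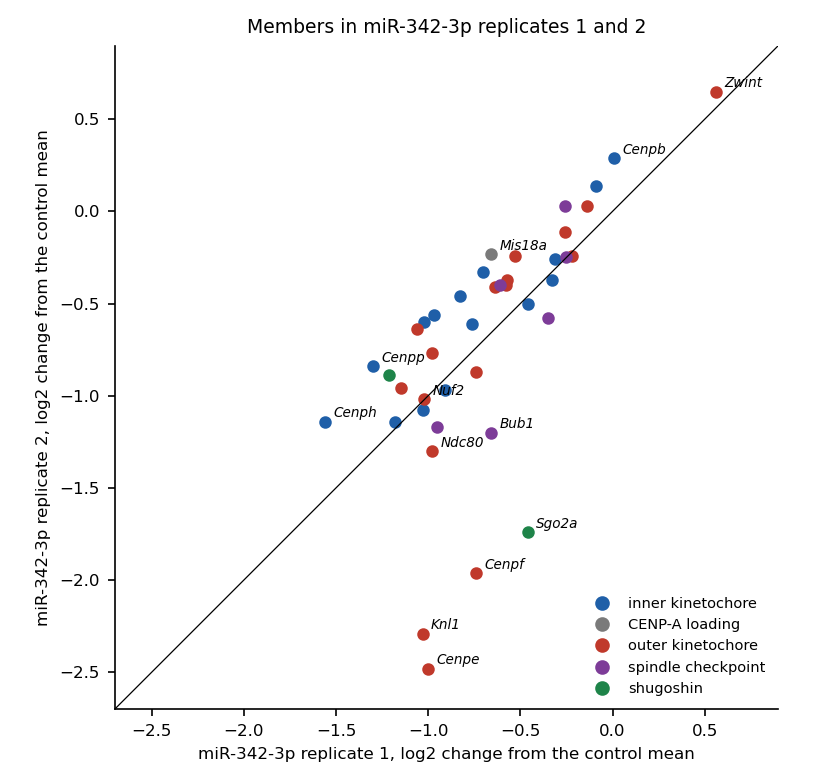
Log2 change from the control mean of each of the 41 genes in miR-342-3p replicate 1 (horizontal axis) and replicate 2 (vertical axis), coloured by position in the kinetochore; the line marks equal change. Cenpe, Knl1, Cenpf and Sgo2a lie more than 1 below the line, and Zwint lies above 0 on both axes.

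Genes that act together with those above were described in the same way. Of 15 other kinetochore genes 6 fell (40.0%, against 7.42% of all genes) and none rose, with a median of -0.32. The largest falls were those of Kntc1 (-0.89, FDR = 0.0119), the ROD subunit that forms the RZZ complex with Zwilch and Zw10, and Kif18a (-0.80, FDR = 0.0555), a kinesin that limits chromosome oscillation. Zw10 was not called (-0.14, interval -0.37 to 0.10, FDR = 0.405), and its groups overlapped. Of 5 genes of the chromosomal passenger complex, which corrects attachments, and Haspin, only the kinase gene Aurkb was called (-0.41, FDR = 0.0246). That is 20.0% of this list, against 7.42% of all genes. The median of the 5 genes was -0.30, and all 5 differences were negative. In 4 of them every miR-342-3p array was below every control array (15.5% of all genes). At an unadjusted p under 0.05 in limma 3 were lower. Of 19 genes of the anaphase-promoting complex and its regulators, the target of the checkpoint, 3 fell (15.8%) and none rose, with a median of -0.14. These genes all lay in the upper part divided at the median control signal, where 14.0% of genes were called lower. The share of this list was thus near that of genes of like signal. The lowest were Anapc15 (-0.59, FDR = 0.0332) and Fbxo5 (-0.57, FDR = 0.0698), whose product EMI1 inhibits the complex. The activator Cdc20, which MAD2 and BUBR1 bind, had a difference of -0.10 (interval -0.31 to 0.11, FDR = 0.478). Over these 39 genes 10 fell and none rose at this threshold, while at an unadjusted p under 0.05 in limma 18 were lower and 1 was higher, beside 13.0% and 12.5% of all genes. Of these 39 genes 1 fell without control replicate 1, 2 or 3, and 8, 13 and 14 fell without miR-342-3p replicates 1, 2 and 3.

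RefSeq promoter windows of 300 bases were held for 37 of the 41 genes. CCAAT, on either strand, was found in 25 of the 37 (67.6%), against 41.7% of 15614 genes tested with a window and 37.4% of all 32851 windows. TTTGAA or TTCGAA was found in 18 (48.6%), against 19.0% and 19.2%. TTCGAA reads the same on both strands and was found in 5 (13.5%, against 2.1% and 1.6%). These were the promoters of Mis18a, Cenpm, Bub1, Bub1b and Sgo1, and each of these genes fell. In that order, the first base of TTCGAA lay at -241, -83, 14, -188 and 27 from the start site. Of all genes tested with a window, 12.3% with TTCGAA and 7.5% without it were called lower. These shares were 8.4% and 7.1% for CCAAT, and 8.8% and 7.4% for TTTGAA or TTCGAA. The E2F sequences TTTGGCGC or TTTCGCGC were found in 1 (Cenpl, 2.7%), against 1.3% and 0.8%. The 4 promoters shown above all hold CCAAT, that of Zwint included, and those of Cenpa and Ttk hold TTTGAA near the start site.

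The 37 genes were also divided by motif. With CCAAT 18 of 25 fell and without it 8 of 12, with medians of -0.66 and -0.40. With TTTGAA or TTCGAA 13 of 18 fell and without them 13 of 19, with medians of -0.60 and -0.66. With TTTGAA alone counted 9 of 14 fell and without it 17 of 23, with medians of -0.60 and -0.66. With TTCGAA 5 of 5 fell and without it 21 of 32, but the median with it was nearer to 0 (-0.46, against -0.65). No difference between these counts was tested. A match of letters is a description and does not show that a factor binds there.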

How the data were processed

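Affymetrix arrays of 3 control and 3 miR-342-3p-transfected RAW264.7 samples were used, with groups taken from the sample labels. The authors processed the scans with RMA, which adjusts background, normalizes quantiles and summarizes probes (version not given in the sources used here) and deposited log2 values of 35556 probe sets. Medians of the 6 arrays lay within 0.1507. The small number of arrays limits the precision.

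Gene names came from the platform annotation (21789 with 1 gene, 1621 with several, 12146 with none listed; only the first were used), and symbols were checked against the RefSeq gene table (GRCm38.p6, 21698 Entrez matches, 0 changed). Each gene took its probe set of largest interquartile range. Without a filter on level, 19938 genes were fitted with lmFit and eBayes in limma 3.58.1 (R 4.3.3; prior degrees of freedom 4.79, residual 4), adjusted by Benjamini and Hochberg, and called at an FDR under 0.1. The step was tested on simulated data. The outcome of that test is not given, and no call rests on it. That test does not show how the calls behave where the SD differs between the groups, as the SD did here. Where samples of a group were technical repeats, p-values would measure that spread only.

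The members and lists were chosen with earlier results of these data known, so counts and medians are given without a test of a list. Values in every array are given for the 3 lowest members and the highest of each role group (all in groups of 4 or fewer), and of related genes the 2 lowest called per list are named by fold change. Cdc20 and Zw10 were chosen after their values were seen. Genomic span replaced the planned protein length, since no protein table was used here. Promoters were searched on both strands for the letters given above. As alternatives, a replicate block, fits without each array, array weights, other scalings, probe sets, level filters and thresholds, a robust prior with trend and the t-test named in the methods were run. Figures were drawn with matplotlib 3.10.9 in Python 3.11.15.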

Additional observations from a re-analysis of the deposited data

How the results depend on the processing

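With 1 array left out in turn, 5 to 35 of the 41 genes fell, 3 to 13 inner, 2 to 14 outer and 1 to 14 related genes, and 1 gene rose; the median was -0.69 to -0.46 for the inner and -0.80 to -0.54 for the outer kinetochore. Leaving out a control array gave the low counts. At an FDR under 0.05, 18 genes fell (8 inner, 7 outer, 6 related), and at an FDR under 0.01, 1 (1 inner, 0 outer, 0 related), with 0 higher. The methods' t-test after Benjamini and Hochberg adjustment called 0 lower (0 inner, 0 outer, 0 related) and 0 higher. At its unadjusted p under 0.05, 28 were lower and 1 higher (11 inner, 12 outer and 11 related lower). At that p of the t-test 1955 of all 19938 genes were lower and 2080 higher. With the KMN network alone the outer median was -0.41. Same-numbered arrays did not deviate together (correlations -0.3082, -0.1626 and -0.1062), so the numbers were not taken to pair them. With the replicate number as a block, 30 genes fell (11 inner, 12 outer, 10 related), and Knl1 (FDR = 0.0116), Cenpf (FDR = 0.0125) and Sgo2a (FDR = 0.0622) were called, while Cenpn (FDR = 0.173), Cenpo (FDR = 0.174) and Spc24 (FDR = 0.105) were not, so that not all genes of the CENP-O/P/Q/U group and the NDC80 complex were called. Among genes above the median level, 33 of the 38 members left fell, beside 1952 of the 9969 genes in that fit. This level was the mean over all 6 arrays, not the control mean used above. Under the other alternatives 25 to 30 of 41 fell, and Zwint rose in each of these settings. The cause of these shifts was not tested. Of the fold changes only uncalled ones turned: with 1 array left out Spdl1 was -0.07 to 0.02, Cenpb -0.02 to 0.15 and Cenpt -0.03 to 0.09, and Cenpt was 0.00 with arrays centered. Over 15 settings Cenpl and Cenpn were not called in 9, with FDRs of up to 0.289 and 0.321. Cenpe, Cenpc1 and Spc24 were not called in 7, with FDRs of up to 0.305, 0.255 and 0.28. Of the 31 genes called in the main fit, 24 were called in no fit without a control array. No signal over background was available in the values used here.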
